A study of Mus musculus with 8 samples.

Results

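The 10 genes described here are transcriptional targets of the tumour suppressor p53, chosen by name with earlier results of these data known. They are Cdkn1a, Mdm2, Aen, Plk3, Ccng1, Sesn1, Trp53inp1, Zmat3, Phlda3 and Btg2, among the 24421 gene symbols in the count files. All 10 were present and all 10 passed the filter on low counts, with between 47 and 6581 read pairs per gene and library. The libraries are RNA of bone marrow-derived macrophages (BMDM), macrophages grown in culture from mouse bone marrow, all given interleukin 4 (IL-4) for 24 h. In 4 of them (CKO, replicates 2, 6, 7 and 8) the genotype is OPA1f/f; Lyz2-Cre, in which Cre recombinase from the myeloid Lyz2 locus is meant to remove the floxed part of Opa1, a gene of mitochondrial inner membrane fusion. The other 4 (FLOX, replicates 3, 4, 6 and 7) are OPA1f/f, so both groups carry floxed Opa1 alleles and only CKO carries the driver. No library had the driver without the floxed alleles, so deletion and driver cannot be told apart. None was without IL-4, so whether a difference depends on IL-4 cannot be seen. The labels give no age or sex, and do not say whether libraries of a group are separate mice, so p-values measure the spread between these libraries, which may be technical.

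p53 is a transcription factor that is kept scarce by its ubiquitin ligase MDM2 and is stabilised by DNA damage, replication stress and other insults. Its targets include genes that halt the cell cycle, genes that promote cell death, genes that adjust metabolism, and Mdm2 itself, which closes a negative feedback loop. Several of these genes also answer to other signals, among them growth factors and nutrient stress, so their transcripts are not readouts of p53 alone.

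p53 binds DNA as a tetramer at a pair of 10-base elements. The promoter windows of RefSeq (GRCm38.p6, the assembly of mm10), which run from 250 bases before to 50 bases after a transcription start, were searched for the p53 consensus motif without a spacer, with at most 2 mismatches in 20 bases. The motif is symmetric, so both strands were covered. Windows were found for 8 of the 10 genes, Trp53inp1 and Zmat3 being the exceptions, and 2 of the 8 held a match, against 0.392% of 27025 genes with a window. The matches in Cdkn1a and Ccng1 are shown because these are the known kind of element through which p53 acts, with the matching 20 bases in capitals and each with 1 mismatch.

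Cdkn1a: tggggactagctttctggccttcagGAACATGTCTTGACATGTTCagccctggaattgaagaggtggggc

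Ccng1: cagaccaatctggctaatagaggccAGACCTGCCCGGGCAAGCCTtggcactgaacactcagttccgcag

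The Cdkn1a stretch is chr17:29090903-29090972 on the plus strand, and its match begins 51 bases before the upstream one of 2 RefSeq starts. The Ccng1 stretch is chr11:40755437-40755506 on the minus strand, and its match begins 195 bases before the start. Both matches lie outside the GENCODE M21 models of their genes. With 3 mismatches allowed, Aen and Sesn1 also held a match, 4 of 8 in all, against 1.63% of genes. The genes were chosen as known p53 targets, and the mismatch limit was set after the promoters were seen. The contrasts with all genes are therefore descriptions and not tests. A match is a stretch of letters and not a measured binding site, and elements in introns, such as the one known in Mdm2, fall outside these windows.

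Most of the 10 genes were higher in CKO. Of the 10, 7 rose, 1 fell and 2 did not pass the test (edgeR quasi-likelihood test, adjusted p under 0.05 over 11519 genes), while over all tested genes 23.8% rose and 21.6% fell. The 8 called genes compare with 45.4% called in either direction. The median log2 fold change of the 10 was 0.36, against -0.02 over all tested genes. The rises over 2-fold were those of 3 genes, Plk3, Phlda3 and Cdkn1a, and 4.67% of all tested genes rose by as much. For 8 of the 10 every CKO library lay on one side of every FLOX library, where 42.7% of all tested genes showed no overlap. Because the 10 were chosen with earlier results of these data known, these contrasts with all genes are descriptions and not tests. In bulk RNA more transcript per cell and more cells that express a gene cannot be told apart.

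**Figure D1:**
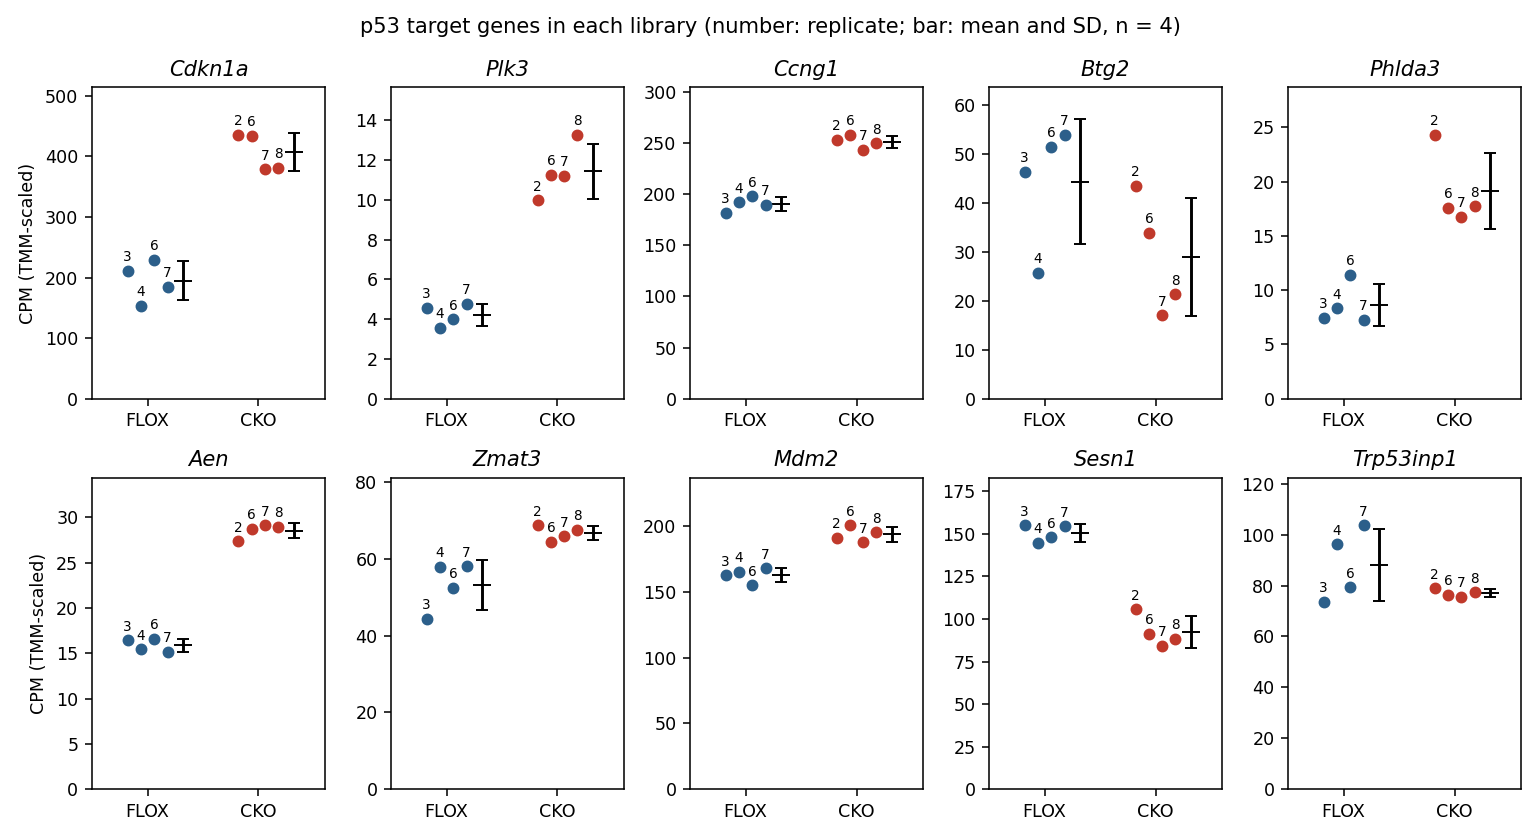
Level of each of the 10 genes in each library, in CPM (counts relative to library size scaled by TMM factors), with FLOX in blue and CKO in red, the replicate number above each point, and the mean and SD (n = 4) in black. CKO lies above FLOX without overlap in 7 panels and below it in the panel of Sesn1, and the groups overlap for Btg2 and Trp53inp1.

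The first role is arrest of the cell cycle. Cdkn1a (ENSMUSG00000023067, chromosome 17, 29090976 to 29100727, mm10) encodes p21, the inhibitor of cyclin-dependent kinases through which p53 halts cells in G1. Its level was 436, 434, 379 and 381 CPM in CKO replicates 2, 6, 7 and 8. In FLOX replicates 3, 4, 6 and 7 it was 211, 154, 229 and 185 CPM. The lowest CKO library was thus well above the highest FLOX library, FLOX replicate 6. The means were 407 ± 31.8 and 195 ± 32.6 CPM (SD, n = 4 each), a 2.09-fold rise with a 95% interval from 1.74 to 2.51 (log2 change 1.06 with SE 0.11, adjusted p = 7.89e-06 by edgeR). Cdkn1a made up 34.6% ± 1.02 of the summed CPM of the 10 genes in CKO and 21.3% ± 3.02 in FLOX (SD, n = 4 each). Without it the summed level was 730.2 to 802 CPM in CKO and 692 to 754 CPM in FLOX, so the groups overlapped in the sum of the other 9.

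Plk3 (chromosome 4, 117128655 to 117133963) encodes a polo-like kinase that is induced by stress and by mitogens. Its level was 9.97, 11.3, 11.2 and 13.3 CPM in CKO replicates 2, 6, 7 and 8. It was 4.56, 3.56, 4.00 and 4.76 CPM in FLOX replicates 3, 4, 6 and 7. Every CKO library was above every FLOX library by a wide margin, although this was the least abundant of the 10 genes. The rise was 2.72-fold, with a 95% interval from 2.20 to 3.36 (log2 change 1.44 with SE 0.13, adjusted p = 2.69e-06 by edgeR), the largest of the 10.

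Ccng1 (chromosome 11, 40748552 to 40755311) encodes cyclin G1, which recruits protein phosphatase 2A to MDM2. It stood at 253, 258, 243 and 249 CPM in CKO replicates 2, 6, 7 and 8 and at 182, 192, 198 and 189 CPM in FLOX replicates 3, 4, 6 and 7. The libraries of each group lay close together and the groups did not meet. The rise was 1.32-fold (95% interval 1.21 to 1.44, log2 change 0.40 with SE 0.05, adjusted p = 6.77e-05 by edgeR), and its interval lay below that of Cdkn1a.

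Btg2 (chromosome 1, 134075170 to 134079120) encodes an antiproliferative protein of the BTG and TOB family that promotes removal of poly(A) tails. It is also an immediate-early gene, switched on within minutes by growth factors. Its level was 43.5, 33.9, 17.01 and 21.3 CPM in CKO replicates 2, 6, 7 and 8. In FLOX replicates 3, 4, 6 and 7 it was 46.3, 25.6, 51.5 and 53.9 CPM. FLOX replicate 4 lay inside the CKO range, and this gene varied most within groups, with a coefficient of variation of 41.7% in CKO and 29.0% in FLOX. The log2 fold change of -0.63 (SE 0.32, with adjusted p = 0.145 by edgeR) was not called, and its 95% interval ran from 37.3% to 111% of the FLOX level. Without CKO replicate 2 it passed the threshold (log2 change -0.86, adjusted p = 0.0355 by edgeR).

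The libraries with low Btg2, CKO replicates 7 and 8 and FLOX replicate 4, were also low in 4 other immediate-early genes, but not in the sum of the list. The summed level of the immediate-early list was 1671 and 1638 CPM in CKO replicates 7 and 8, above the 1600 and 1546 CPM of CKO replicates 2 and 6. In FLOX replicates 3, 4, 6 and 7 it was 1891, 1826, 1833 and 2035 CPM. Fos stood at 25.95 and 31.2 CPM in CKO replicates 7 and 8 and at 45.5 and 58.1 CPM in CKO replicates 2 and 6. In FLOX it was lowest in replicate 4, at 20.9 CPM, with 43.9, 65.3 and 108.7 CPM in replicates 3, 6 and 7. Ier2, Junb and Zfp36 were likewise lowest in CKO replicates 7 and 8 within CKO and in FLOX replicate 4 within FLOX. These 4 genes were picked from the list of immediate-early genes after their values were seen. Others of the list differed: Egr1 was highest of CKO in replicate 7 (13.9 CPM), and Ier3 was higher in CKO replicates 7 and 8 (101.6 and 88.1 CPM) than in replicates 2 and 6 (56.4 and 52.1 CPM). Of 13 tested immediate-early genes 5 fell and 8 were not called, with a median of -0.36, while 21.6% of all tested genes fell. The 5 were Egr2 (-0.55), Atf3 (-0.36), Zfp36 (-0.55), Ier3 (-0.62) and Klf2, the latter named after its value was seen (-0.42). The count is unstable: 2 or 3 fell in the fit without any 1 of CKO replicates 2, 6, 7 and 8 or of FLOX replicates 3, 6 and 7.

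**Figure D2:**
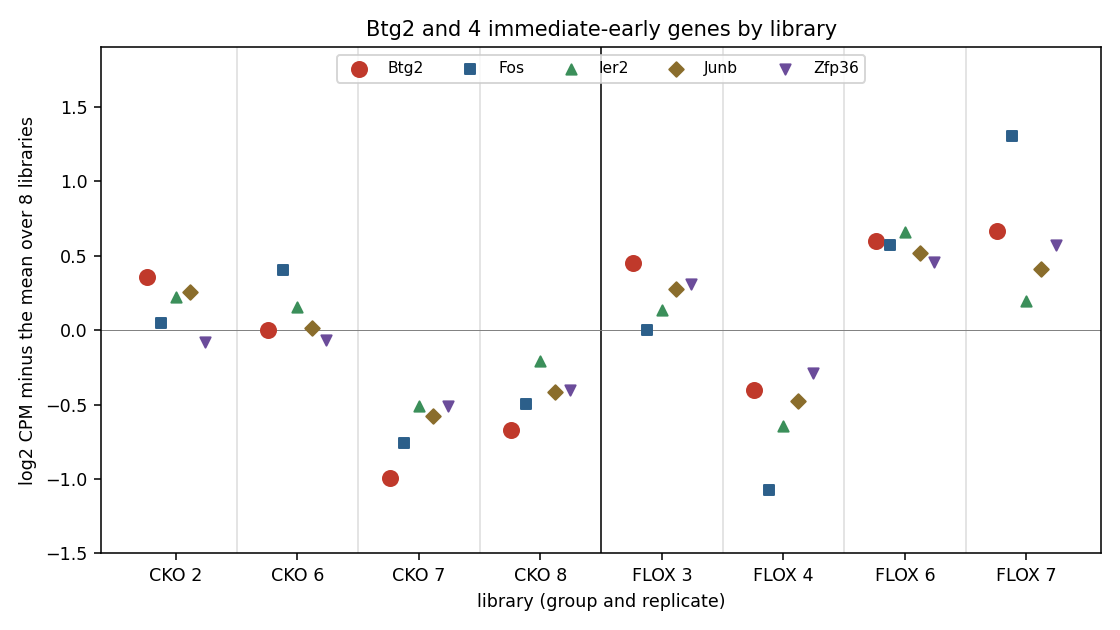
Deviation of log2 CPM from each gene's mean over the 8 libraries for Btg2 (large red circles) and the 4 immediate-early genes named with it. All 5 are below their mean in CKO replicates 7 and 8 and in FLOX replicate 4, and above it in FLOX replicates 6 and 7.

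The second role is feedback on p53 and on survival signalling. Mdm2 (chromosome 10, 117688875 to 117710758) encodes the ubiquitin ligase that marks p53 for degradation. It stood at 191, 200.4, 187 and 195 CPM in CKO replicates 2, 6, 7 and 8 and at 162, 165, 155 and 168 CPM in FLOX replicates 3, 4, 6 and 7. The groups did not overlap, but the gap between them was small. The rise was 1.19-fold (95% interval 1.09 to 1.30, log2 change 0.25 with SE 0.05, adjusted p = 0.00211 by edgeR), the smallest of the 7 rises.

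Phlda3 (chromosome 1, 135766119 to 135769136) encodes a small pleckstrin homology protein that competes with the kinase AKT for membrane lipids. Its level was 24.3, 17.6, 16.8 and 17.7 CPM in CKO replicates 2, 6, 7 and 8 and 7.43, 8.32, 11.4 and 7.24 CPM in FLOX replicates 3, 4, 6 and 7. CKO replicate 2 stood above the other CKO libraries and FLOX replicate 6 above the other FLOX libraries. The rise was 2.19-fold (95% interval 1.67 to 2.86, log2 change 1.13 with SE 0.16, adjusted p = 0.000101 by edgeR), and it was 1.02 on the log2 scale without CKO replicate 2 and 1.31 without FLOX replicate 6.

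Zmat3 (chromosome 3, 32334792 to 32366014) encodes a zinc finger protein that binds RNA and acts on splicing and transcript stability. It was at 68.7, 64.5, 65.8 and 67.5 CPM in CKO replicates 2, 6, 7 and 8 and at 44.4, 58.0, 52.5 and 58.1 CPM in FLOX replicates 3, 4, 6 and 7. The CKO libraries were nearly level, and FLOX replicate 3 was the lowest of all. The rise was 1.25-fold (95% interval 1.09 to 1.44, log2 change 0.32 with SE 0.08, adjusted p = 0.00622 by edgeR).

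The third role is cell death. Aen (chromosome 7, 78895854 to 78911209) encodes a nuclease of the ISG20 family that enhances apoptosis after DNA damage. Its level was 27.3, 28.7, 29.1 and 28.9 CPM in CKO replicates 2, 6, 7 and 8 and 16.4, 15.4, 16.6 and 15.1 CPM in FLOX replicates 3, 4, 6 and 7. Both groups were tight and far apart. The rise was 1.79-fold (95% interval 1.59 to 2.02, log2 change 0.84 with SE 0.07, adjusted p = 1.96e-06 by edgeR), the smallest p of the 10 genes.

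Trp53inp1 (chromosome 4, 11156431 to 11174379) encodes a stress protein that promotes both p53 activity and autophagy. It was at 78.9, 76.4, 75.5 and 77.4 CPM in CKO replicates 2, 6, 7 and 8. In FLOX it was at 73.6 and 79.3 CPM in replicates 3 and 6 but at 96.2 and 103.6 CPM in replicates 4 and 7. All CKO libraries lay between FLOX replicates 3 and 6. The log2 fold change of -0.19 (SE 0.10, with adjusted p = 0.118 by edgeR) was not called, with a 95% interval from 74.3% to 102.8% of the FLOX level. It was called without FLOX replicate 3 (log2 change -0.27, adjusted p = 0.0166 by edgeR).

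The fourth role is metabolic. Sesn1 (chromosome 10, 41809935 to 41908424) encodes a sestrin, which restrains the growth kinase complex mTORC1 and is also a target of FOXO factors. It was the 1 gene of the 10 that fell. Its level was 105.6, 91.4, 84.0 and 88.5 CPM in CKO replicates 2, 6, 7 and 8 and 155, 145, 148 and 154 CPM in FLOX replicates 3, 4, 6 and 7. The groups were far apart, with CKO replicate 2 nearest to FLOX. CKO was at 61.3% of FLOX (95% interval 54.3% to 69.3%, log2 change -0.71 with SE 0.07, adjusted p = 8.68e-06 by edgeR).

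**Figure D3:**
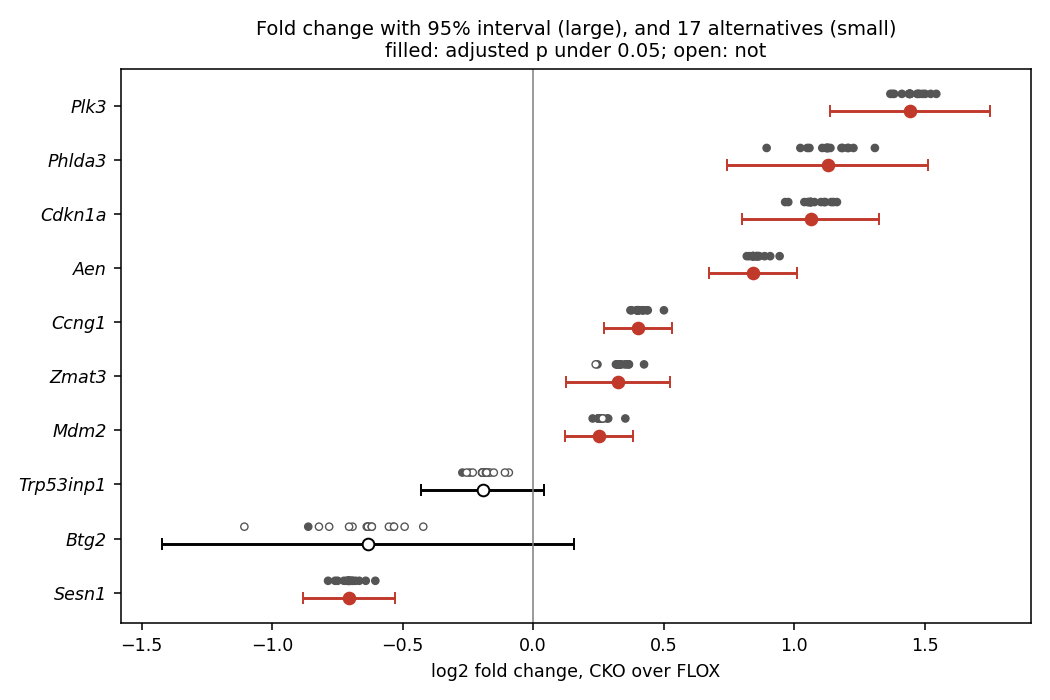
Log2 fold change of CKO over FLOX for the 10 genes, with the 95% interval (large symbols, red where called) and the values under 17 alternative settings (small symbols, filled where called). Plk3, Phlda3, Cdkn1a and Aen form the upper group, Ccng1, Zmat3 and Mdm2 rose by less than 0.5, and Sesn1 lies at -0.71.

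Some libraries were often the highest or lowest of their group among the 10 genes. CKO replicate 2 was the highest of the CKO libraries for 6 genes, and CKO replicate 7 the lowest for 7. Among the FLOX libraries replicate 7 was highest for 5 genes and replicate 6 for 4. The same counts were not made over all tested genes, so they show nothing particular to the 10. Some gaps were small, as for Mdm2 at 187 CPM in CKO replicate 7 and 191 CPM in CKO replicate 2. CKO replicate 2 also had the fewest assigned pairs of all.

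Because long transcripts collect more reads, levels of different genes were compared as CPM per kilobase of exons in GENCODE M21, with all exons of a gene merged. The transcripts expressed may be shorter, and the annotation used for counting is not given, so the order of genes is approximate. In FLOX, Cdkn1a (54.8 ± 9.17) and Ccng1 (54.1 ± 1.91) were the most abundant, with overlapping ranges, followed by Sesn1 (37.8 ± 1.28) and Mdm2 (31.98 ± 1.09; SD, n = 4 each). Btg2 (16.2 ± 4.68) and Trp53inp1 (13.6 ± 2.17) overlapped each other, as did Phlda3 (5.51 ± 1.23) and Zmat3 (4.66 ± 0.564). Aen (2.74 ± 0.124) and Plk3 (1.67 ± 0.215) came last in CPM per kilobase. In CKO, Cdkn1a (114.6 ± 8.94) stood clear of Ccng1 (71.4 ± 1.76), and Mdm2 (38.1 ± 1.10) stood above Sesn1 (23.2 ± 2.34). Phlda3 (12.3 ± 2.24) overlapped Trp53inp1 (11.9 ± 0.222), which overlapped Btg2 (10.5 ± 4.401). Zmat3 (5.83 ± 0.162) stood above Aen (4.91 ± 0.138) and Plk3 (4.52 ± 0.54), whose ranges overlapped. The exon models of Cdkn1a and Plk3 share 273 and 84 bases with genes on the other strand, which is 7.68% and 3.32% of their length, and the strand setting of the counting is not given in the sources used here.

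The profiles over the 8 libraries were compared by the root mean square difference of log2 CPM after centring each gene on its mean, a description over libraries that share genotype and depth. Among the 10 genes, Mdm2 and Ccng1 were the most alike (0.09), and Plk3 and Btg2 the least (1.16). The 5 other genes nearest to Cdkn1a were Cdk1, the main mitotic kinase (0.07), Ddit4, an inhibitor of mTORC1 that is itself on the list of further p53 targets (0.08), Ssx2ip (0.09), the interferon-inducible Xaf1 (0.09) and Nxn (0.09). All 5 had log2 fold changes between 1.01 and 1.05, and values near that of Cdkn1a follow from how these genes were picked. Ddit4 and Nxn were low, at 5.68 ± 0.609 and 2.17 ± 0.311 CPM in CKO (SD, n = 4).

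Transcripts of p53 itself rose slightly, by a log2 fold change close to that of Mdm2 (0.25). Trp53 (chromosome 11, 69580359 to 69591873) was at 87.1, 92.0, 85.6 and 84.2 CPM in CKO replicates 2, 6, 7 and 8 and at 83.4, 68.3, 76.7 and 64.2 CPM in FLOX replicates 3, 4, 6 and 7. The groups did not overlap, although FLOX replicate 3 nearly reached CKO. The log2 fold change was 0.25 (SE 0.08, with adjusted p = 0.0206 by edgeR), and the call ended without FLOX replicate 4 (edgeR adjusted p = 0.057) or FLOX replicate 7 (edgeR adjusted p = 0.0509). These are transcript levels, and p53 is known to be governed largely through the stability of its protein, which was not measured. The relatives Trp63 and Trp73 had 0 counts in every library.

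Of 21 tested genes in the list of p53, its family and its regulators, 5 rose and 1 fell, with a median of 0.06. The share that rose is that of all tested genes, 23.8%. Chek1, a kinase of the replication checkpoint, rose from 5.70 ± 0.536 to 18.4 ± 1.41 CPM (SDs over n = 4; log2 change 1.68 with SE 0.10, adjusted p = 2.09e-07 by edgeR). Atr, the kinase upstream of it, rose by 0.47 and Daxx, which binds MDM2, by 0.28 on the log2 scale. The acetyltransferase Kat5 (-0.21) and the damage kinase Atm (0.48), named after their values were seen, were each called in 10 of 17 alternatives. The call of Kat5 ended without CKO replicate 2, 7 or 8 or FLOX replicate 3, and that of Atm without CKO replicate 6, 7 or 8 or FLOX replicate 3 or 6. Mdm4, the partner of MDM2 that masks p53, averaged 117 ± 12.1 CPM in CKO and 122 ± 18.8 CPM in FLOX (SDs over n = 4; log2 change -0.06, edgeR adjusted p = 0.68).

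Further p53 targets were read from a wider list, chosen like the others with earlier results of these data known. Of 51 such genes 44 were tested, of which 17 rose and 4 fell, with a median of 0.16. Over all tested genes 23.8% rose and 21.6% fell. Among the further targets of cell death 5 of 13 rose and 2 fell. Pidd1, the scaffold of the PIDDosome, rose from 3.57 ± 0.379 to 8.50 ± 0.492 CPM (SDs over n = 4; log2 change 1.25 with SE 0.11, adjusted p = 3.56e-06 by edgeR). The death receptor Tnfrsf10b rose by 1.48. Eda2r (1.61) and Trp53i11 (2.50) also rose, but averaged 0.351 and 0.235 CPM in FLOX, so their folds rest on few counts. The fifth rise was that of Pmaip1, which encodes the death protein NOXA (0.63), and the falls were those of Steap3 (-0.30) and of the death receptor Fas (-0.34). These 3 were named after their values were seen. The call of Fas ended when CKO replicate 6, 7 or 8 or FLOX replicate 6 or 7 was left out, with edgeR adjusted p between 0.0665 and 0.125. Bax, the classical pore-forming target, averaged 134 ± 7.61 CPM in CKO and 134 ± 14.4 CPM in FLOX (log2 change -0.01, adjusted p = 0.93 by edgeR), and Bbc3, which encodes PUMA, had a log2 fold change of 0.13 (edgeR adjusted p = 0.495). Both were also named after their values were seen.

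Among targets of arrest, repair and metabolism 12 of 31 rose and 2 fell, against 23.8% and 21.6% of all tested genes. The bypass polymerase Polh rose from 20.4 ± 1.64 to 40.7 ± 2.96 CPM (SDs over n = 4; log2 change 0.99 with SE 0.08, adjusted p = 1.69e-06 by edgeR). Gtse1, which is also a gene of G2 phase, rose by 1.07 and 9030617O03Rik by 0.68. Gadd45a, a damage-response gene (-0.77), and the epoxide hydrolase Ephx1 (-0.51), both named after their values were seen, fell.

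Paralogues of the 10 genes moved both ways: of 19 tested, 5 rose and 5 fell, with a median of -0.02. These shares are near those of all tested genes, 23.8% and 21.6%, whose median was also -0.02. The sestrins split. Sesn2, a target of p53 and of the stress factor ATF4, rose from 18.8 ± 2.05 to 34.9 ± 1.38 CPM (SDs over n = 4; log2 change 0.89 with SE 0.08, adjusted p = 4.67e-06 by edgeR), while Sesn1 fell, and Sesn3 was at 2.92 ± 0.178 and 2.78 ± 0.898 CPM (log2 fold change 0.09). Of the other CDK inhibitors of the p21 family, Cdkn1c fell from 9.58 ± 0.865 to 3.66 ± 0.736 CPM (SDs over n = 4; log2 change -1.40 with SE 0.14, adjusted p = 8.12e-06 by edgeR). Cdkn1b had a log2 fold change of -0.24 (SE 0.10, with adjusted p = 0.0635 by edgeR). It was called without FLOX replicate 4 (-0.33, edgeR adjusted p = 0.00227) and with the replicate number as a block (-0.36, edgeR adjusted p = 0.0155). The polo-like kinases Plk1 (0.76) and Plk4 (1.23) of mitosis rose with Plk3, whereas Plk2 had a log2 fold change of 0.15 (edgeR adjusted p = 0.346). With the replicate number as a block Plk2 was called higher (0.35, edgeR adjusted p = 0.0104).

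Ccng2, the other cyclin G, fell by 0.41 on the log2 scale, against the rise of Ccng1. Trp53inp2 fell by 0.70 and Btg1 by 0.66 on the log2 scale, and their relatives Trp53inp1 (-0.19) and Btg2 (-0.63) were not called. The difference within each pair was not tested, and the values of Btg1 and Btg2 are close. Tob2 (-0.22) fell, but the call ended when CKO replicate 6, 7 or 8 or FLOX replicate 7 was left out, and with library totals as the only scaling. Isg20, a relative of Aen that interferon induces, rose by 1.19 and Phlda1 by 1.61. Mdm4, Isg20l2, Zmat1, Zmat2, Zmat5 and Tob1 had log2 fold changes between -0.18 and 0.12 and were not called.

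Cell cycle genes that p53 is known to lower through p21 and the DREAM repressor complex were higher in CKO, as Cdkn1a was. Of 28 tested, 27 rose, with a median of 0.91, and Ccnb2 (0.13), named after its value was seen, was not called. Over all tested genes 23.8% rose and 21.6% fell. The licensing factors Cdc6 (2.26), Mcm2 (1.62) and Mcm5 (1.51) and cyclin E2 (Ccne2, 2.41) had the smallest p. Of 16 genes of CDKs, cyclins and CDK inhibitors 11 rose and 1, Cdkn1c, fell. Ccnd1 (3.58), Ccnd2 (3.52) and Ccne1 (1.92), cyclins whose kinases p21 restrains, rose by more than Cdkn1a did, in log2 units. These lists share Ccne2 and Ccna2, and Plk1 and Plk4 stand in both the cell cycle and the paralogue lists.

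**Figure D4:**
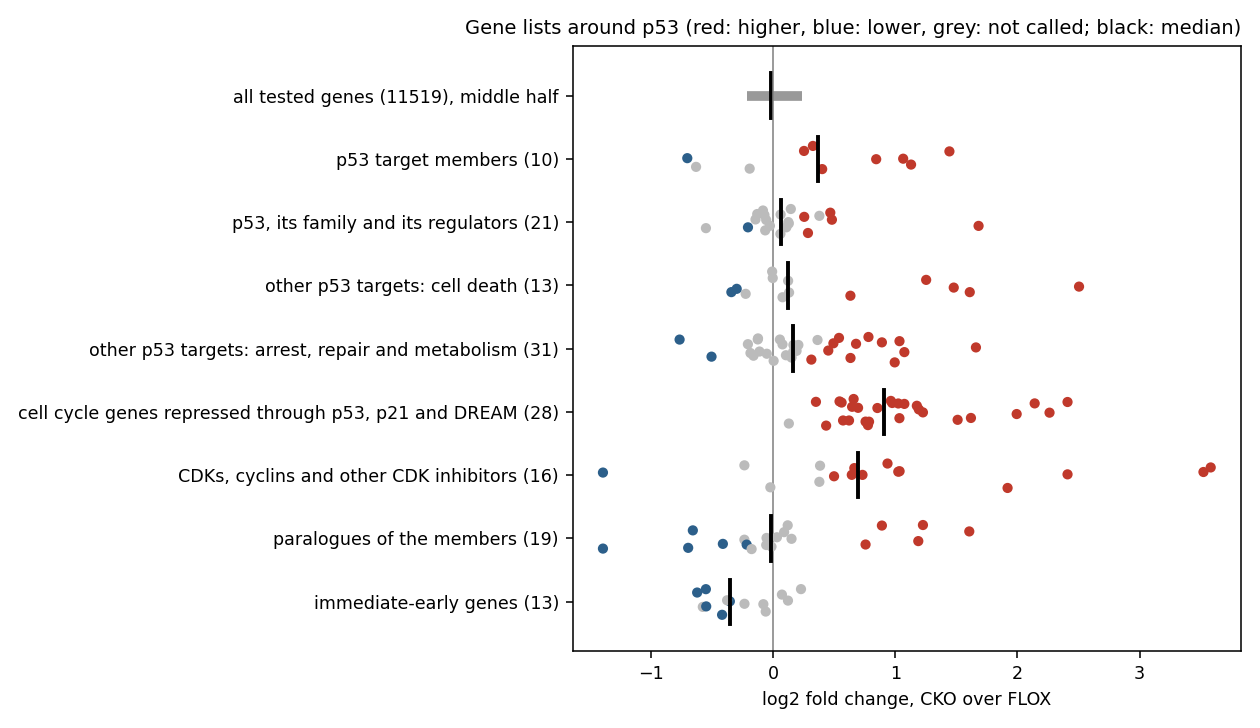
Log2 fold change of every tested gene in each list (points; red higher, blue lower, grey not called) with the list's median in black, and the median and interquartile range of all 11519 tested genes in the top row. Medians are 0.36 for the 10 p53 targets, 0.12 and 0.16 for the further targets, 0.91 for the cell cycle genes and -0.02 for all tested genes.

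The libraries held 11764855 to 18939948 read pairs assigned to genes. Opa1 counts were 94.6 to 104.6 CPM in CKO and 103.6 to 130.4 CPM in FLOX (log2 change -0.19, adjusted p = 0.0544 by edgeR), and gene totals do not resolve the floxed exons. Lyz2 was at 1809 to 2387 CPM in CKO and 6906 to 8294 CPM in FLOX. All 9 macrophage markers were present, and 4 of them fell (Lyz2, Csf1r, Cd68 and Mertk) and 1, Fcgr1, rose. The summed level of the 9, resting mainly on Lyz2, the driver locus, was 8822 to 9821 CPM in CKO and 14944 to 15942 CPM in FLOX. All 7 pancreatic islet markers, included because the protocol text names islets, had 0 counts in every library. The summed level of 9 neutrophil and precursor markers, resting on Csf3r, was 121 to 149.95 CPM in CKO and 218 to 314 CPM in FLOX. Csf3r was the 1 member of 5 tested that fell, whereas 3 of the 5, S100a9, Ltf and Ngp, rose at levels of at most 3.11 CPM on average. The summed level of 6 monocyte markers, Chil3 being the most abundant, was 107 to 133 CPM in CKO and 148 to 199 CPM in FLOX. Of the 4 monocyte markers tested, 3 rose and 1 fell. The summed level of 7 stromal and endothelial markers, resting on Pecam1, was 12.1 to 14.5 CPM in CKO and 7.64 to 9.001 CPM in FLOX, with 1 gene tested, Pecam1 itself, which rose. The marker genes named here beside Lyz2 were chosen after their values were seen. The part of these markers in the results above was not tested.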

How the data were processed

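The 8 RNA sequencing libraries of BMDM were compared by genotype. Each library's deposited file lists raw counts, whole numbers of read pairs, against gene symbols. The submitters' processing notes name HISAT2 2.0.5, HTSeq and mm10. Which annotation and strand setting were used is not given in the sources used here. HTSeq's 5 classes of unassigned pairs (28.3% to 33.7% of pairs) stayed out of library sizes and tests.

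Counts were analysed with edgeR 4.0.16 in R 4.3.3. Genes were filtered with filterByExpr (minimum count 10, minimum total 15) and scaled by TMM, and the quasi-likelihood F test of CKO against FLOX was run on all 11519 genes left, with Benjamini-Hochberg adjustment and a threshold of 0.05. Standard errors are log2 fold change over the root of F, and 95% intervals were taken at 6 degrees of freedom. The test was checked on simulated counts in which few genes changed, as many up as down. Many more genes were called in these data, so that check does not cover their setting. Chi-square per degree of freedom between replicates was 2.45 or more, above counting noise, which does not show that libraries came from separate mice or cultures. Members and gene lists were chosen with earlier results of these data known. Genes named are the 10 members, Opa1, Lyz2, Trp53, Mdm4, up to 4 called genes of smallest p per list, all tested paralogues and the 5 profiles nearest to Cdkn1a. The motif's mismatch limit was set after the promoters were seen. Alternatives were RLE, upper-quartile and total scaling, 2 other filters, DESeq2 1.42.0, limma-voom (limma 3.58.1), libraries left out and the replicate number as a block.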

Additional observations from a re-analysis of the deposited data

Results flagged for a closer look

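In 3 of 64 sets of 4 libraries (a gene in a group), 1 library stood apart from the other 3 by more than Dixon's 95% critical gap, where chance gives about 1 in 20. Phlda3 was at 24.3 CPM in CKO replicate 2 and at 16.8 to 17.7 CPM in the other CKO libraries. Trp53inp2, a paralogue of Trp53inp1, was at 79.7 CPM in CKO replicate 2 and at 64.3 to 64.97 CPM in the others. Sesn2 was at 32.8 CPM in CKO replicate 8 and at 35.4 to 35.7 CPM in the others, a small gap.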

How the results depend on the processing

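Over 17 alternatives, 166 of 170 values for the 10 genes kept their direction and their side of the threshold, and none reversed. With 7 genes higher, the count was 7 in every alternative except the replicate block, where it was 5. The count of genes that fell was 1, and 1 to 2 when 1 library was left out, Btg2 being added without CKO replicate 2 and Trp53inp1 without FLOX replicate 3. Opa1 ran from -0.23 to -0.12 when 1 library was left out, passing the threshold without FLOX replicate 3 (-0.23) or 6 (-0.21), and was -0.18 and called with upper-quartile factors.

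The replicate number as a block rests on numbers 6 and 7, which alone occur in both groups, and leaves 1 residual degree of freedom. Same-numbered libraries correlated in their deviations from the group means by 0.13 and -0.07, and nothing in the labels ties them together. Under the replicate block the log2 fold changes of Mdm2 (0.27, edgeR adjusted p = 0.0605) and Zmat3 (0.24, edgeR adjusted p = 0.122) were no longer called, and 1985 genes rose and 1518 fell over all, against 2739 and 2492. With library totals as the only scaling the median of all genes moved from -0.02 to 0.08, and 3612 genes rose and 1556 fell. The size of small changes such as those of Mdm2 and Zmat3 is therefore relative to the scaling. Each of these 2 genes was called in 16 of 17 alternatives, the exception being the replicate block. Plk3 rests on 47 to 197 pairs per library, which limits its precision.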
